A study of Mus musculus with 2 samples.

Results

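The stretch of mouse Igh, the immunoglobulin heavy chain locus, that is taken to hold Igha, Ighe and Ighg2c was examined through its chromatin contacts in activated B cells. The section was set as chr12:114496829-114541000 (mm9), and its members were all forward-reverse primer pairs, with fragment midpoints at least 10 kb apart, in which at least 1 fragment had its midpoint there. Of the 206 probed fragments 7 met this condition, and they made 705 of the 10415 pairs at that distance. Both libraries were 5C libraries: crosslinked chromatin was cut with HindIII, nearby ends were ligated, and ligation products of a forward primer on one fragment and a reverse primer on another were amplified and counted by sequencing. The cells were C57Bl/6 splenic B cells left after removal of CD43-bearing cells, grown for 40 h with LPS and IL4 (10 ng per ml). They form 1 group of 2 replicates, described by the series as biological, with no unstimulated or other control, so nothing here compares conditions.

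Class switch recombination replaces the Cμ exons of the expressed heavy chain by those of a downstream constant gene, through breaks in the repetitive switch region before each gene. Igha encodes the heavy chain of IgA, Ighe that of IgE, and Ighg2c that of IgG2c, the C57BL/6 counterpart of IgG2a. LPS with IL4 is the classical stimulus for IgG1 and IgE, whereas IgA and IgG2c are driven by other cytokines, chiefly TGF-β and interferon-γ. The 3' regulatory region (3'RR), an enhancer cluster downstream of Igha, and Eμ, the enhancer between the J segments and Ighm, are known to meet in B cells, and switching brings a downstream switch region to the one near Eμ.

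The probed fragments covered 82.3% of the section. Forward 36 (chr12:114496829-114501530), reverse 37 (chr12:114501531-114502799), forward 38 (chr12:114502800-114510164), reverse 39 (chr12:114510165-114522181), forward 40 (chr12:114522182-114528705) and reverse 41 (chr12:114528706-114531105) adjoined each other without a break. After 5952 bp without a probed fragment came forward 43 (chr12:114537058-114539128). In the GRCm38.p6 gene table Igha is followed by Ighe, Ighg2c, Ighg2b, Ighg1, Ighg3, Ighd and Ighm. By that order forward 36, next to the 3'RR, lies at the Igha end and forward 43 at the end towards Ighg2b. No mm9 annotation was used here, so exons, introns and switch regions were not placed, and which of the 3 genes each fragment holds is not stated.

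Partners were grouped by fragment number and distance, with approximate limits. Fragments 28 to 35 stand for the 3'RR (6 fragments) and 76 to 81 for Eμ (6). Those from 44 to 75 are called the other constant genes (14), and those up to 70 kb above fragment 81 JH and D (8). Fragments between 130 kb and 2.6 Mb above fragment 81 stand for V (125), split into 4 windows of equal length, window 1 being nearest. The rest were 20 fragments on the downstream side of the 3'RR, 4 between D and V and 16 at the upstream end.

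Pairs of the section at any distance made up 8.84% (8.83 to 8.85, 95% Wilson interval) of 14503618 counts in replicate 1. In replicate 2 they made up 7.29% (7.28 to 7.30) of 17658603. These intervals cover counting error only, as PCR products without molecular identifiers are not independent molecules. Most of these counts came from 9 pairs under 10 kb, which took 65.6% and 60.4% of them. The 705 longer pairs had medians of 105 counts (95% exact Poisson interval 85.9 to 127) and 117 (96.8 to 140), and 4 of them were at 0 in replicate 1 and 0 in replicate 2. Across these pairs the ratios defined next had a Spearman correlation of 0.822 between replicates. The pairs share fragments and primers, so this is a description.

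Each count was divided by the count expected at its distance, a smooth curve fitted per replicate over all pairs, to give a ratio. The ratio was also corrected for primer coverage, with 50 rounds in which every forward and then every reverse primer was scaled to a common mean ratio. Primer coverage mixes how well a primer works with how much its fragment truly contacts, and the 2 cannot be told apart here, so both ratios are given. A percentile states where a count stood among the 200 pairs nearest in distance. A pair was called when its upper-tail q (Weibull fit to distance-standardised counts, Benjamini-Hochberg adjustment over all 10415 pairs) was below 0.01 in both replicates.

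The 7 fragments differed widely in level. Forward 38 was the richest by typical pair, with a median ratio of 1.62 ± 0.36 (SD, n = 2), and reverse 39, the longest at 12017 bp, the poorest with 0.254 ± 0.130. Between them lay reverse 37 (1.04 ± 0.26), reverse 41 (1.0 ± 0.0095), forward 40 (0.962 ± 0.339), forward 43 (0.636 ± 0.054) and forward 36 (0.453 ± 0.060). Reverse 37, reverse 41 and forward 40 did not differ beyond their spread. The median over all pairs of the map was 0.357 in replicate 1 and 0.404 in replicate 2, so only reverse 39, at 0.162 and 0.346, lay below it in both. Forward 38 ranked 2 and 7 of the 98 forward primers by primer coverage in the replicates, reverse 41 ranked 9 and 3 of the 108 reverse primers, and reverse 39 ranked 87 and 74.

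The replicates weighted these fragments differently. From replicate 1 to replicate 2 the share of all counts went from 2.66% to 1.62% for reverse 37 and from 3.58% to 2.34% for forward 38, and from 0.325% to 0.534% for reverse 39. Reverse 39 had the lowest Spearman correlation between replicates, 0.589 over 96 pairs, against 0.708 to 0.876 for the other 6 fragments. Its pair with forward 49 (chr12:114559616-114579798) held 347 and 4518 counts.

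**Figure D1:**
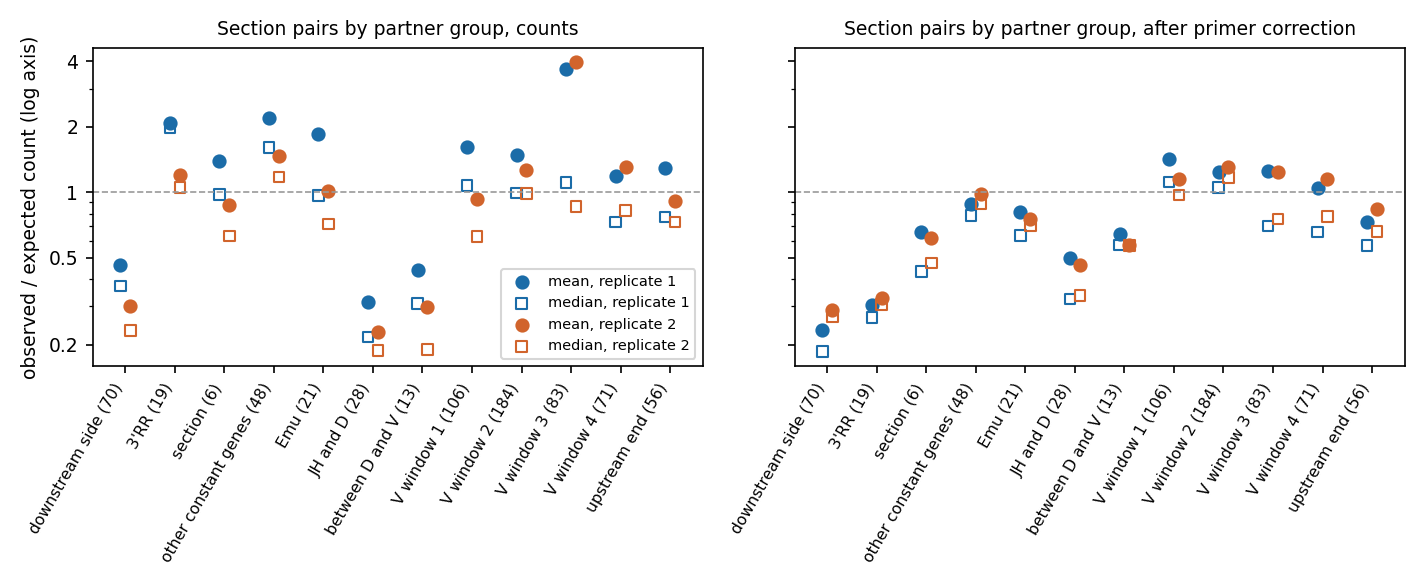
Mean (filled circles) and median (open squares) observed over expected ratio of the section's pairs in each partner group, per replicate, on log axes; numbers in brackets are pairs, the left panel shows uncorrected and the right panel primer-corrected ratios. In uncorrected ratios JH and D have the lowest means, after correction the downstream side and the 3'RR do, and the mean for V window 3 stands well above its median in uncorrected ratios.

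The 3'RR adjoins the section, and the 19 pairs between them held many counts. Their mean ratio was 2.08 in replicate 1 and 1.20 in replicate 2, or 1.64 ± 0.62 (SD, n = 2), at 10.3 to 63.6 kb, and the median percentiles were 92.5 and 91.0. In replicate 2 the mean fell below 1 with a distance minimum of 20 kb (1.52 and 0.875) and, a choice made after the values were seen, without forward 38 (1.47 and 0.990). After primer correction the mean ratio was 0.304 and 0.327, well under 1. Scaling by primer coverage thus lowered the mean ratio of these pairs, and its direction relative to the expected level turned with the correction. Coverage was not high for every section primer, as forward 36 ranked 33 and 36 of the 98 forward primers. None of the 19 was called, against 0.240% of all tested pairs of the map (25 of 10415). In single replicates the background was 0.432% and 0.374%, and for primer-corrected ratios called in both it was 0.307%.

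Within this block the section's forward fragments met reverse 33 (chr12:114486613-114491122) and reverse 35 (chr12:114493852-114496828) far more than reverse 29 (chr12:114474053-114474922). Forward 38 held 37683 and 32609 counts with reverse 33 and 32539 and 28655 with reverse 35, but 1849 and 2550 with reverse 29. Forward 36 held 15828 and 16926 with reverse 33 and 598 and 582 with reverse 29. Reverse 29 was also the lowest of these partners with forward 40 and forward 43. Forward 40 had 6201 and 6147 counts with reverse 33, 6808 and 5431 with reverse 35 and 413 and 602 with reverse 29. Forward 43 had 8461 and 7663, 5042 and 3966, and 764 and 789. After correction, reverse 29 had ratios of 0.0902 to 0.430 with these 4 fragments and reverse 33 had 0.141 to 0.494, and reverse 33 stayed above reverse 29 with each of the 4 in both replicates, by a smaller factor than in counts.

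Seen from the section's reverse fragments, forward 28 (chr12:114465909-114474052), the far end of the 3'RR, had counts of the same order as the nearer fragments despite its distance. With reverse 41 it held 4152 and 10726 counts at 59.9 kb, against 3685 and 4618 for forward 31 (chr12:114477117-114480873) and 2816 and 6289 for forward 34 (chr12:114491123-114493851) at 37.4 kb. Reverse 37 held 6129 and 9486 counts with forward 28 and 7559 and 6153 with forward 31. Reverse 39 was uneven, with 725 and 5598 for forward 28, 1102 and 2077 for forward 31 and 442 and 2906 for forward 34. In replicate 1 forward 28 was below forward 31 with reverse 37 and reverse 39, and in replicate 2 it was the highest of the 3'RR fragments with all 3, among pairs at least 10 kb apart. After correction it was lower than forward 31 with reverse 37 (0.214 and 0.20 against 0.266 and 0.276). With reverse 41 it was lower than forward 34 (0.184 and 0.170 against 0.266 and 0.238) but higher than forward 31 (0.168 and 0.159). With reverse 39 it was lower than forward 34 (0.265 and 0.377 against 0.337 and 0.457). Against forward 31 with reverse 39 (0.416 and 0.307) it was lower in replicate 1 and higher in replicate 2. With the called pairs of the map left out of the primer means, the order against forward 31 with reverse 37 turned (0.365 and 0.279 against 0.262 and 0.277). The order against forward 34 with reverse 41 turned in replicate 1 only (0.533 and 0.454 against 0.452 and 0.458).

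**Figure D2:**
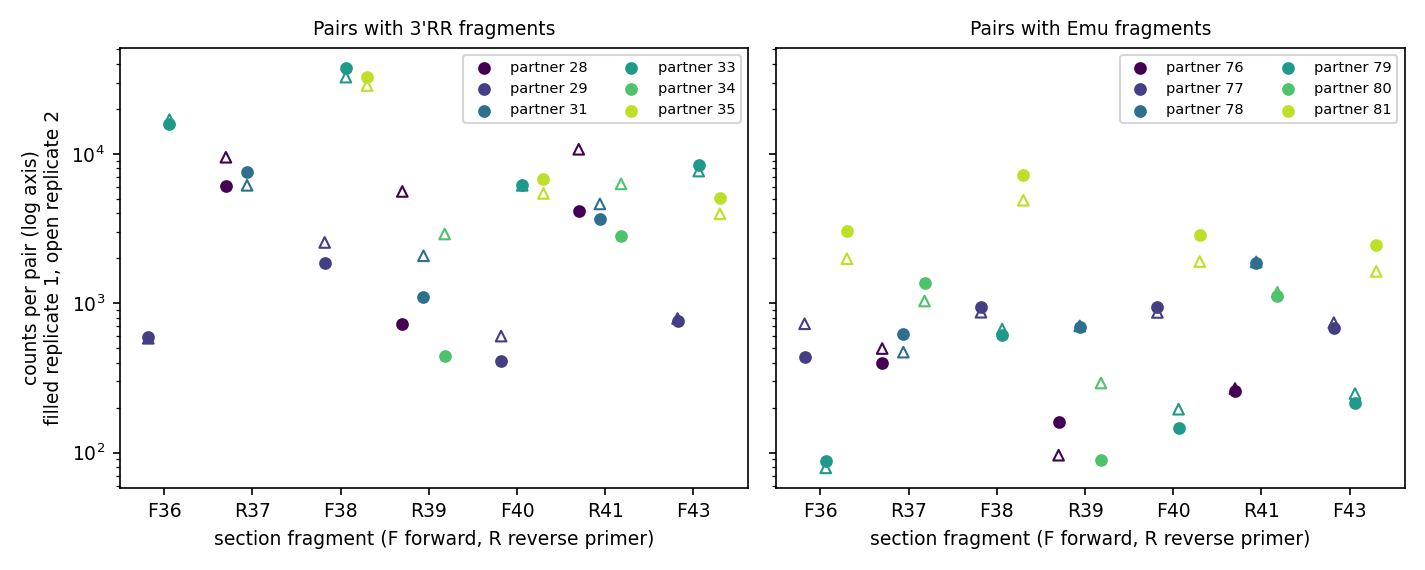
Counts of each pair between a section fragment (x axis, in genomic order, F forward and R reverse primer) and a 3'RR fragment (left) or an Eμ fragment (right), on a log axis shared by the panels; filled circles are replicate 1, open triangles replicate 2, and colours mark the partner. Forward 38 carries the highest values with both enhancers, and reverse 81 is the highest Eμ partner of every forward fragment.

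Contacts with Eμ were detected for every section fragment, at 121 to 167 kb. None of the 21 pairs was called, which is near the 0.240% called among all tested pairs of the map. Their mean ratio was 1.85 and 1.02, or 1.44 ± 0.59 (SD, n = 2), and 0.784 ± 0.038 after primer correction. The median ratio was 0.970 and 0.716, and the median percentiles were 82.0 and 77.5. One Eμ fragment set the mean: without the pairs of reverse 81 (chr12:114664824-114667095) it was 0.760, averaged over the replicates. That choice was made after the values were seen.

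Reverse 81 held 3057 and 1985 counts with forward 36, 7228 and 4889 with forward 38, 2859 and 1900 with forward 40 and 2455 and 1633 with forward 43. All 4 pairs were higher in replicate 1. Their ratios were 5.05 and 2.27 for forward 36, 11.4 and 5.32 for forward 38, 4.02 and 1.82 for forward 40 and 3.18 and 1.43 for forward 43. After correction they ran from 0.232 to 0.746, all below 1. With the called pairs of the map left out of the primer means this turned for forward 36 (1.09 and 1.24) and, in replicate 2, for forward 38 (0.530 and 1.01). Reverse 77 (chr12:114658751-114659958), at 438 to 949 counts with the same forward fragments, and reverse 79 (chr12:114662159-114664063), at 79 to 670, were lower. After correction reverse 77 had 1.66 and 1.37 with forward 36, 1.25 and 1.03 with forward 40 and 1.69 and 1.11 with forward 43, above reverse 81 with the same fragments. Only with forward 38 did the replicates differ in this order, with 0.934 and 0.678 for reverse 77 and 0.436 and 0.746 for reverse 81. With the called pairs left out of the primer means reverse 77 stayed above reverse 81 with forward 36 (1.99 and 1.64), forward 40 (1.38 and 1.09 against 0.327 and 0.664) and forward 43 (1.63 and 1.06 against 0.464 and 0.648).

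From the section's reverse fragments, forward 78 (chr12:114659959-114662158) and forward 80 (chr12:114664064-114664823) were read. Reverse 41 shared 1849 and 1888 counts with forward 78 and 1123 and 1181 with forward 80, and these were close in both replicates. Reverse 37 shared 617 and 470, and 1364 and 1034. Reverse 39 shared 689 and 704 with forward 78 but 89 and 292 with forward 80. Forward 76 (chr12:114656273-114658750) was low with all 3, at 96 to 497 counts.

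The level with reverse 81 changed sharply at the border between the 3'RR and the section. Forward 34, the last forward fragment on the 3'RR side, shared 20047 and 25487 counts with reverse 81 at 173 kb. Forward 36, nearer to it at 167 kb, shared 3057 and 1985. The 3 forward fragments of the 3'RR had 20047 to 42241 counts in replicate 1, and 25487 to 56969 counts in replicate 2. The 4 of the section had 2455 to 7228 and 1633 to 4889, so the groups did not overlap in either replicate. Primer-corrected ratios did not overlap either, at 2.66 to 5.68 for the 3'RR and 0.232 to 0.746 for the section, or at 4.41 to 8.06 and 0.327 to 1.24 with the called pairs left out of the primer means. The 7 forward fragments of the other constant genes, closer still, had 698 to 7340 and 557 to 8412 counts and overlapped the section. These values are for reverse 81 alone, and how many other reverse primers separate the 3'RR from the section is not given.

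Averaged over all Eμ fragments, the section stood between its neighbours. The mean ratio with Eμ was 16.7 and 14.5 for the 3'RR (18 pairs), 1.85 and 1.02 for the section (21 pairs) and 0.984 and 0.682 for the other constant genes (36 pairs). After correction these were 3.24 and 4.55, 0.811 and 0.757, and 0.517 and 0.520. The order was the same in both replicates and with both ratios. Pairs share primers, so the differences between the sections were not tested.

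**Figure D3:**
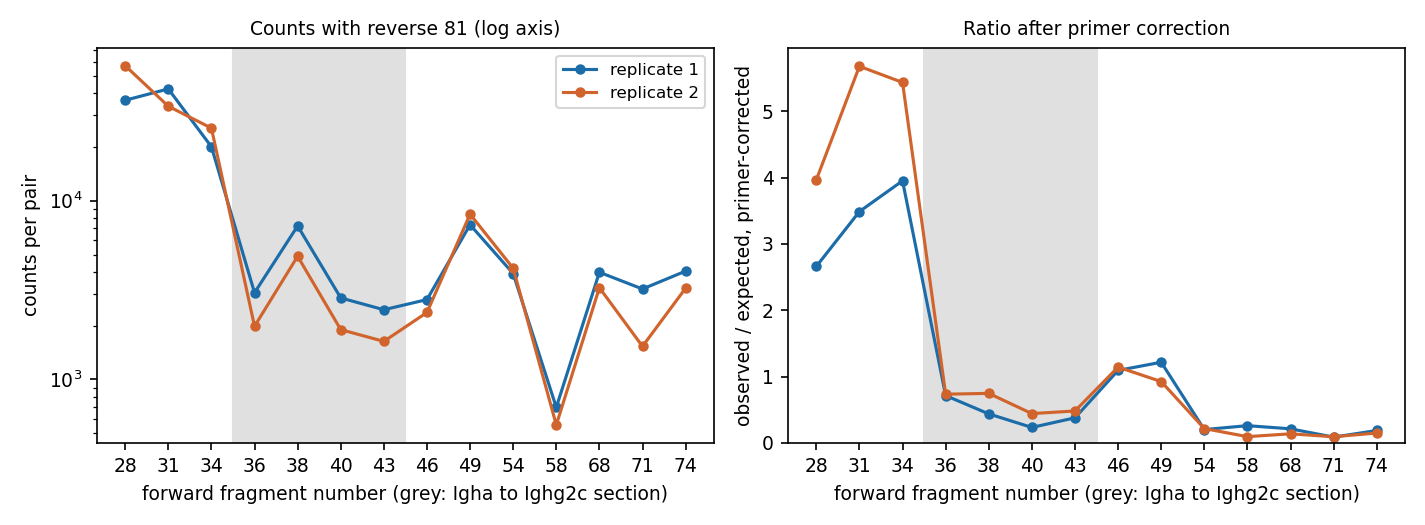
Counts (left, log axis) and primer-corrected ratios (right) of reverse 81, in the Eμ group, with each forward fragment from the 3'RR to the other constant genes, in genomic order and not to scale; blue is replicate 1 and orange replicate 2. Values drop between forward 34 and forward 36 at the start of the grey section in both replicates, from 20047 and 25487 counts to 3057 and 1985.

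The remaining constant genes, Ighg2b to Ighd by gene order, had mean uncorrected ratios above those of the 3'RR and Eμ in both replicates. By median ratio the order against the 3'RR differed between replicates. The medians were 1.98 and 1.05 for the 3'RR and 1.61 and 1.18 for the other constant genes. The 48 pairs had a mean ratio of 2.20 and 1.46, or 1.83 ± 0.52 (SD, n = 2), and 0.936 ± 0.070 after correction. After correction all 4 V windows had higher means, at 1.10 to 1.29, but not all had higher medians. The median corrected ratio, averaged over the replicates, was 0.835 for the other constant genes. It was 1.04 and 1.11 for V windows 1 and 2, and 0.729 and 0.717 for windows 3 and 4. Of the 48 pairs 12 had ratios above 2 in both replicates, and 5 of these 12 belonged to forward 38 and 4 to reverse 41. The background for this threshold was 5.70% of all tested pairs of the map, and 10.1% of the section's pairs (71 of 705) passed it. After correction 2.84% of the section's pairs passed, against 3.33% of all. Of the 71 pairs, forward 38 held 29, reverse 41 18, reverse 37 12, forward 40 7, forward 36 5, forward 43 1 and reverse 39 0.

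Reverse 44 (chr12:114539129-114547720), just past the section's end, had opposite extremes with neighbouring section fragments. With forward 38 at 36.9 kb it held 35640 and 42381 counts, ratios of 12.7 and 7.56, the highest pair of the section with the other constant genes. With forward 40, nearer at 18.0 kb, it held 150 and 201 counts, ratios of 0.036 and 0.024. The second pair was picked after its values were seen. Its primer-corrected ratios were 0.0045 and 0.0073, and their mean was the lowest of the 705 section pairs and of all 738 pairs of the map under 100 kb, although 4 section pairs at 0 counts lay below it in replicate 1. Both primers had higher counts in other pairs, and those given here were chosen after their values were seen. Forward 40 held 4784 and 4393 counts with the next reverse fragment, 48 (chr12:114558042-114559615). Reverse 44 held 4074 and 5746 counts with forward 36. The cause of the low counts of forward 40 with reverse 44 was not tested.

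Some fragments farther up the constant region had high counts with the section. Reverse 75 (chr12:114652514-114656272), 116 to 155 kb away, held 2321 and 2169 counts with forward 36, 5882 and 4035 with forward 38, 2936 and 2096 with forward 40 and 2448 and 1769 with forward 43. These counts changed little with distance along the section, apart from forward 38. Reverse 41 held 7754 and 17037 counts with forward 46 (chr12:114551907-114557959) at 25.0 kb, 5769 and 17512 with forward 49, 5174 and 7823 with forward 54 (chr12:114594537-114601396), and 2340 and 3749 with forward 68 (chr12:114638362-114643285) at 111 kb. Replicate 2 was higher in each of these 4 pairs. After correction these 4 had ratios of 0.473 to 1.77, and the pairs of reverse 75 had 0.492 to 1.67. Other fragments were lower. Reverse 61 (chr12:114617320-114617981) with forward 36 had uncorrected ratios of 0.437 and 0.306. Forward 58 (chr12:114614961-114617010) with reverse 41 had 0.388 and 0.713.

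Inside the section 6 pairs lay at least 10 kb apart. Forward 38 with reverse 41 led them with 14765 and 18550 counts at 23.4 kb, ratios of 4.05 and 2.53. Forward 36 and reverse 39 had the lowest ratios, 0.20 and 0.25, from 839 and 2197 counts at 17.0 kb. Among the 7 adjoining forward-reverse neighbours under 10 kb, which have no ratio here, forward 38 with reverse 37 held 321214 and 214585 counts and forward 40 with reverse 41 156534 and 164965. The adjoining forward 36 and reverse 37 held 856 and 842, though forward 36 held 147534 and 130939 with reverse 35 on its other side. Counts of adjoining fragments thus spanned over 2 orders of magnitude in the same libraries.

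JH and D, the segments from which the variable exon is built, lie just beyond Eμ. They had the lowest mean uncorrected ratio of any partner group. Expected counts rest on distances in the mm9 reference, and rearrangement of the alleles in these cells was not assessed. The 28 pairs at 131 to 223 kb had a mean ratio of 0.316 and 0.229, or 0.272 ± 0.061 (SD, n = 2), and 0.480 ± 0.025 after correction. None had ratios above 2 in both replicates, against 5.70% of all tested pairs, and with 28 pairs none is close to that share. Forward 38 with reverse 83 (chr12:114667887-114670119) was highest, with 792 and 467 counts, while forward 38 had held 7228 and 4889 with reverse 81, which is 1 fragment before it among reverse primers. Forward 86 (chr12:114675716-114676753) with reverse 39 was lowest, with 8 and 33. The mean ratios of JH and D were 0.966 and 0.768 with the 3'RR and 0.142 and 0.114 with the other constant genes, so the section lay between them here too.

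The 13 pairs with fragments between D and V had a mean ratio of 0.439 and 0.298, and the highest of them, forward 115 (chr12:114778143-114787052) with reverse 37, held 520 and 434 counts. On the downstream side, past the 3'RR, the 70 pairs had 0.466 and 0.30, and 0.234 and 0.289 after correction, the lowest corrected level of any partner group. Forward 38 with reverse 15 (chr12:114395287-114399192) led these with 1527 and 1179 counts.

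Contacts with V fragments were counted in all 4 windows. The 444 pairs with V fragments, 279 to 2768 kb away, had median counts of 71.5 and 88.5, a mean ratio of 1.88 and 1.70, or 1.79 ± 0.13 (SD, n = 2), and a median ratio of 1.03 and 0.840. After correction the mean was 1.24 ± 0.019. By window the mean ratio was 1.62 and 0.937, then 1.49 and 1.27, then 3.70 and 3.96, then 1.19 and 1.31 from the nearest to the farthest. Window 3 rested on 1 pair, as its medians of 1.11 and 0.861 show. Leaving out that pair, forward 517 with reverse 41, a choice made with the values in view, the mean ratio over the other V pairs, averaged over the replicates, was 1.36 in place of 1.79. The 56 pairs with the upstream end, past the V windows, had 1.30 and 0.918.

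All 4 called pairs of the section joined it to V, 1 in each window. V pairs were 444 of the section's 705 pairs, so most of its pairs were with V. The called pairs were 0.567% of the 705, against the 0.240% of the whole map. Forward 517 (chr12:116222484-116231679) with reverse 41, 1697 kb apart, was far the largest with 11058 and 19017 counts. It alone made up 14.0% and 14.1% of the counts of reverse 41 over its pairs beyond 10 kb, and 38.2% and 33.2% of those of forward 517. Its ratio was 191 ± 26.4 (SD, n = 2), and 35.6 ± 2.21 after correction. Forward 329 (chr12:115586578-115589686) with reverse 41, at 1058 kb, held 1166 and 2265 counts, a ratio of 23.1 ± 5.93, or 6.71 ± 2.10 after correction. A called pair also raises the means of its own primers. With the called pairs left out of those means the corrected ratios were 79.6 and 101.7 for forward 517 with reverse 41, and 9.64 and 17.8 for forward 329 with reverse 41. Both of these involve reverse 41, whose mean ratio was 3.31 and 3.82 with them and 1.35 and 1.38 without.

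Forward 36, at the Igha end, was called with reverse 810 (chr12:117265258-117268163) at 2768 kb, in the farthest V window. This pair held 1421 and 1928 counts, a ratio of 17.4 ± 4.15 (SD, n = 2), where the expected counts were 98.0 and 94.7. After correction it was 21.6 ± 1.10. Forward 40 with reverse 274 (chr12:115364817-115370798), 842 kb apart, held 822 and 772 counts, a ratio of 10.97 ± 3.82 and 13.1 ± 2.40 after correction. Each of the 4 pairs exceeded all 200 pairs nearest in distance in both replicates. In replicates 1 and 2 the q values were 8.66e-56 and 1.30e-84 for forward 517 with reverse 41 and 1.30e-06 and 1.03e-25 for forward 329 with reverse 41. They were 3.98e-04 and 4.95e-04 for forward 36 with reverse 810 and 1.95e-06 and 0.0020 for forward 40 with reverse 274. On primer-corrected ratios 3 of the 4 were called, without forward 329 with reverse 41. With the called pairs left out of the primer means, a choice added after the values were seen, 3 were called again, but the pair lost was forward 36 with reverse 810. A test on log2 counts called none.

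**Figure D4:**
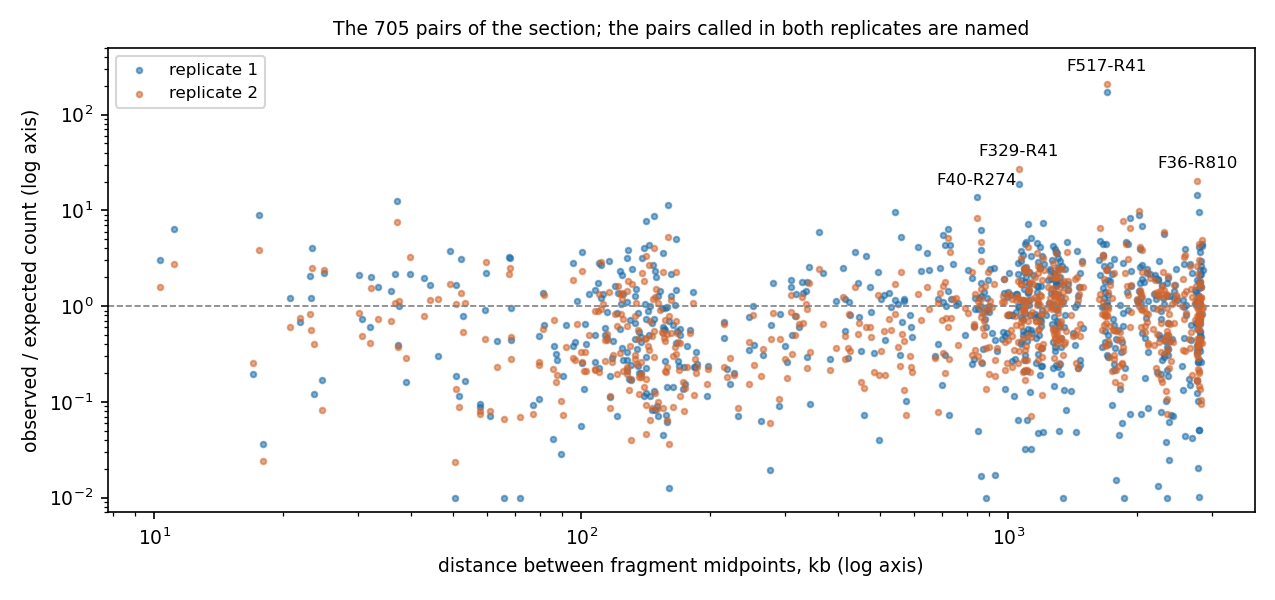
Observed over expected ratio of all 705 section pairs against midpoint distance, both on log axes, blue for replicate 1 and orange for replicate 2; 7 values of replicate 1 under 0.01, of which 4 are counts of 0, are drawn at 0.01. The 4 named pairs are those called in both replicates, at 842 kb or more, and forward 517 with reverse 41 stands alone near 200.

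Each called pair had more counts than the pairs beside it in both replicates, by a margin that differed between the called pairs. For forward 517 with reverse 41, the 8 nearest neighbours, which shift one of the fragments by 1 or 2 probed positions, held 19 to 564 counts and corrected ratios of 0.283 to 1.32. The closest of them were forward 513, 11.5 kb from forward 517, with 90 and 73 counts, and reverse 44, 13.5 kb from reverse 41, with 383 and 564. Around forward 36 with reverse 810 the neighbours held 4 to 284 counts, and around forward 329 with reverse 41 26 to 343. The margin was narrower for forward 40 with reverse 274, with 822 and 772 counts against 15 to 424 for its neighbours.

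Each called pair had at least 1 neighbour with a raised uncorrected ratio. Forward 329 had 3.71 and 4.14 with reverse 44 and 2.25 and 2.44 with reverse 37. Forward 334 with reverse 41 had 3.72 and 3.21, and forward 31 with reverse 810 had 2.87 and 2.70. After correction these neighbours had 0.797 to 1.60. Forward 517 with reverse 44, named above, had ratios of 5.99 and 6.23, and 1.10 and 1.18 after correction. Forward 38, 19.0 kb from forward 40, held 375 and 424 counts with reverse 274, ratios of 6.29 and 4.65, and 4.51 and 3.70 after correction. Forward 36 held 15 and 77 and forward 43 38 and 62 with the same fragment, with corrected ratios of 0.667 and 1.56 and of 1.39 and 1.25. Reverse 274 was thus higher with the 2 middle forward fragments of the section than with the outer ones, which were near the expected level after correction. Forward 38 with reverse 274 was picked after its values were seen and was not called.

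**Figure D5:**
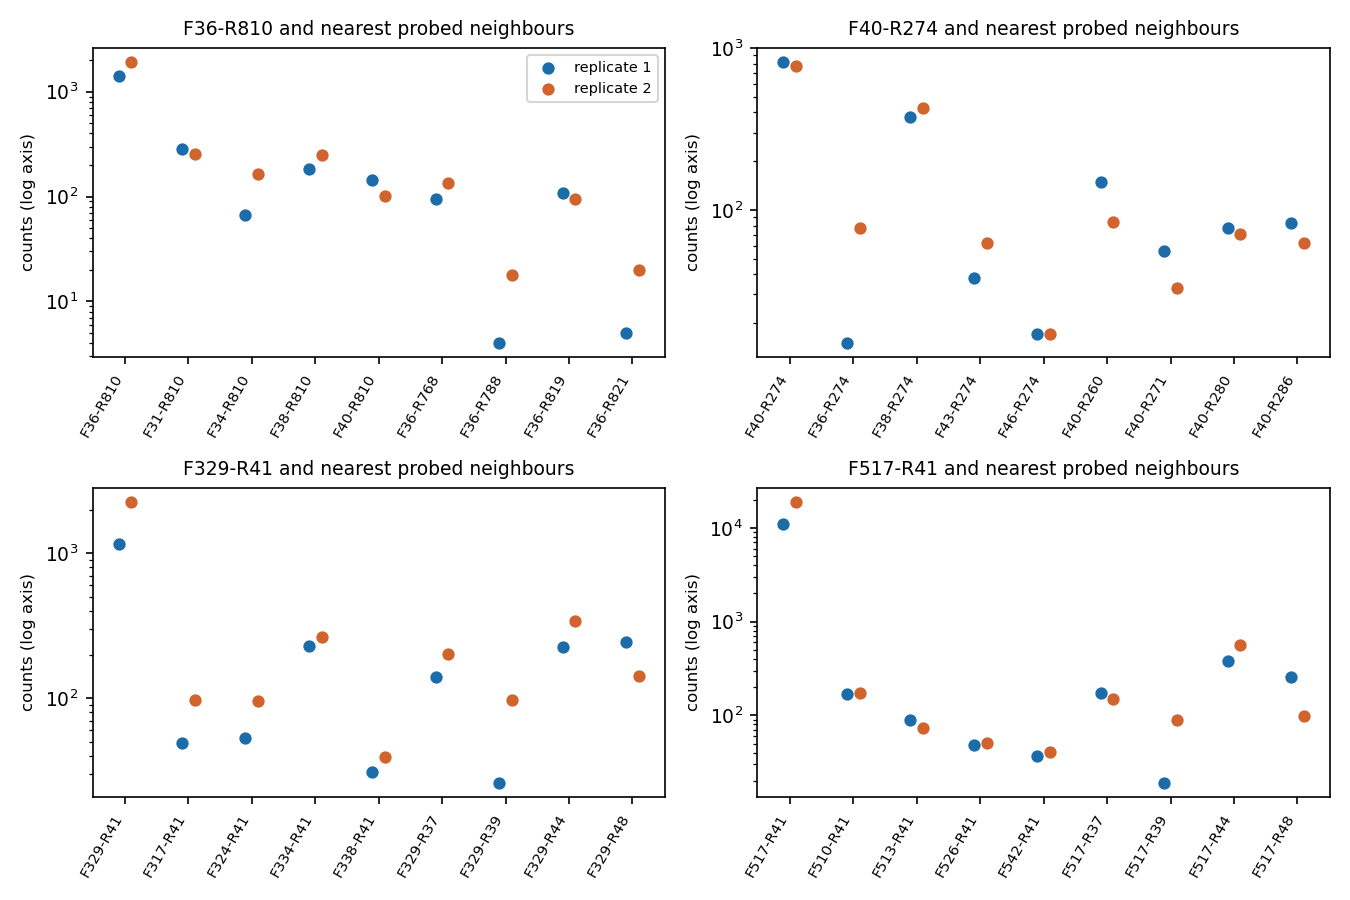
Counts on log axes of each called pair of the section (leftmost in its panel) and of the 8 pairs that shift its forward or reverse fragment by 1 or 2 probed positions; blue is replicate 1 and orange replicate 2. In each panel the called pair is highest in both replicates, and forward 38 with reverse 274 is the only neighbour above 350 counts in both replicates apart from forward 517 with reverse 44.

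Below the called pairs, ratios above 5 in both replicates were reached by 6 further section pairs, for a total of 10 (1.42%, against 1.06% of all tested pairs). With V these were forward 609 with reverse 41 (598 and 931 counts, 2025 kb), forward 38 with reverse 571 (560 and 611, 1928 kb), forward 38 with reverse 235 (444 and 666, 723 kb) and forward 685 with reverse 37 (444 and 553, 2308 kb). The others were forward 38 with reverse 44 and with reverse 81, given above. After correction 0.567% of the section's pairs exceeded 5, the same 4 that were called, against 0.509% of all. Among the further 6, forward 609 with reverse 41 had corrected ratios of 3.88 and 2.70 and forward 685 with reverse 37 of 2.19 and 4.97. The rest had corrected ratios of 0.436 to 1.82.

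V fragments were also sorted by how many section fragments they met at a high level. Each V fragment had only 3 or 4 section pairs. Of the 444 section pairs with V, 50 had ratios above 2 in both replicates, against 5.70% of all tested pairs. With V as partner, 91 of 375 pairs passed for the 3'RR and 91 of 875 for the other constant genes. Of the 125 V fragments, 90 had no section pair with a ratio above 2 in both replicates, 22 had 1, 12 had 2, and 1 had 4. That 1 was reverse 374 (chr12:115706727-115709849), in window 2, whose mean ratios with the 4 forward fragments were 4.28 and 2.66, or 1.64 and 1.32 after correction. After correction 106 fragments had no such pair, and reverse 274 was the only one with 2. Forward 40 also met reverse 840, at the upstream end, with 950 and 426 counts and ratios of 9.57 and 4.49. Reverse 39 had no ratio above 2 in both replicates with any partner, and its highest mean ratio was with forward 611 (84 and 125 counts).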

How the data were processed

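5C products were counted in 2 libraries of 1 group. Reads were aligned with Novoalign to mm9, per the submitters' processing notes, with versions not given in the sources used here. The deposited matrices hold raw counts for 98 forward by 108 reverse primers, made with my5C after a step named transpurge, per the file headers. Pairs at least 10 kb apart were tested (10415). Expected counts came from a lowess of counts on log10 distance (span 0.3), and residuals divided by their expected spread were given a Weibull upper-tail p with Benjamini-Hochberg adjustment over all pairs. Primer correction is described in the report. Replicates differ in depth by totals of 14503618 and 17658603 counts.

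All 7 fragments were named, with each called pair, each pair with the 3'RR or Eμ, the 3 highest pairs per fragment and the highest per partner group. Any other named pair was chosen after its values were seen. Members, lists and partner groups were chosen with earlier results of these data known. Alternatives were the span, the q threshold, primer correction, log2 counts, the distance minimum, medians, each replicate alone and leaving out fragments or pairs. The procedure was tested on simulated data (Python 3.11.15, NumPy 2.4.6, pandas 2.3.3, SciPy 1.17.1, statsmodels 0.14.6, matplotlib 3.10.9). Gene order came from the GRCm38.p6 table, and no coordinate was converted. No sequence is printed, as none was used here.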

Additional observations from a re-analysis of the deposited data

How the results depend on the processing

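The section had 4 called pairs, and also 4 at q under 0.05, with a minimum of 20 kb, with no minimum, and in each replicate alone (4 to 4). There were 5 calls with a lowess span of 0.1, and 3 with a span of 0.6, at q under 0.001 and with primer correction, the called pairs kept in or left out of the primer means. On the log2 scale of count plus 1 there were 0 calls in both replicates by the same Weibull test, while 35 section pairs, those 4 included, had unadjusted p under 0.05 in each of the replicates. Over 9 settings forward 517 with reverse 41 was kept in 8, forward 36 with reverse 810 and forward 329 with reverse 41 in 7 each, and forward 40 with reverse 274 in 6. With primer correction the mean ratio was 0.316 with the 3'RR, 0.784 with Eμ, 0.936 with the other constant genes, 0.480 with JH and D and 1.24 with V. As medians it was 0.843 for Eμ, 0.203 for JH and D and 0.935 for V. With choices made after seeing the data, it was 0.760 for Eμ without reverse 81, and for V 1.36 without forward 517 with reverse 41 and 1.26 without the called pairs. In single replicates the mean ratio was 1.20 to 2.08 with the 3'RR, 1.02 to 1.85 with Eμ, 1.46 to 2.20 with the other constant genes, 0.229 to 0.316 with JH and D and 1.70 to 1.88 with V. No paired analysis was possible because there is 1 group. With 2 replicates and a median of about 105 to 117 counts per pair, small differences between pairs were not detectable. The cause of these changes was not tested.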
